A study of Mus musculus with 6 samples.

Results

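Trp63, Ehf, Elf3, Grhl1, Grhl2, Grhl3, Ovol1, Ovol2, Esrp1 and Esrp2 encode the transcription and splicing factors that set or keep epithelial identity. The 10 genes were chosen by symbol from the 49671 genes of the deposited expression table. The rule made no use of their values, but earlier results of these data were known. Grhl3 was the 1 gene among them that lay below the filter on low values, a mean of 20 over the 6 libraries, so that 9 stood among the 15330 genes tested.

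The p63 transcription factor, encoded by Trp63, is the central regulator of stratified epithelia and of the basal layer of the epidermis. EHF and ELF3 are ETS factors of epithelial tissues, the GRHL factors activate genes of junctions and of the skin barrier, and OVOL1 and OVOL2 are zinc finger repressors that keep inducers of the epithelial-to-mesenchymal transition (EMT) low. ESRP1 and ESRP2 bind RNA and promote epithelial splice forms, as of Fgfr2, Cd44 and Ctnnd1, and are lost in many EMT models.

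The cells were LKPR EPCAM+, an epithelial line from a primary squamous cell carcinoma of mouse skin, and their RNA was sequenced in bulk. All 3 groups, the controls included, carried Lgr5CreER, an inducible Cre under Lgr5, with the conditional alleles KrasLSL-G12D and p53fl/fl and the reporter Rosa26-YFP+/+. Cells had been transduced with lentiviral pLKO.1-puro for a Ntn1 knock-down, with the same plasmid for an Unc5b knock-down, or with TRC1 as the empty vector, and the series title concerns netrin-1 and EMT. Ntn1 encodes the secreted ligand netrin-1 and Unc5b a receptor for it. After 6 days of culture, living single cells positive for YFP and EPCAM were sorted, and each group had 2 libraries. All groups came from 1 line. Whether both libraries of a group stem from cultures or transductions of their own is not stated, so a p-value here reflects the spread among the 6 libraries and that spread may be technical. Cells that had lost EPCAM were not sorted and are not measured here.

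Values are the deposited ones, scaled to 20 M per library and rounded, and are called scaled values. Depth estimated from the spacing of the values was 6.54 to 10.2 M reads, and 1 read was worth 1.97 to 3.06 in the scaled unit. Libraries of a group correlated at r = 0.980 to 0.990 over the tested genes, against 0.936 to 0.967 between groups. Ntn1 was at 359 and 431 in the Ntn1 knock-down, 1319 and 771 in the Unc5b knock-down, against 1566 and 2588 with the empty vector, and Unc5b was at 2311 and 2382 in the Ntn1 knock-down, 419 and 352 in the Unc5b knock-down, against 1527 and 1573 with the empty vector. Epithelial markers summed to 76439 to 80760 in the Ntn1 knock-down, 60041 to 64586 in the Unc5b knock-down and 57925 to 61163 with the empty vector, with all 8 genes above 0 in every library. Fibroblast markers (9 genes) summed to 217 to 313 with Ntn1 knock-down, 144 to 241 with Unc5b knock-down and 136 to 142 with the empty vector, with Lum listed at 0 in 5 libraries. Pdgfra made up most of that sum, with means of 153 in the Ntn1 knock-down, 139 in the Unc5b knock-down and 79.5 with the empty vector. Endothelial markers (5 genes) summed to 178 to 223 with Ntn1 knock-down, 88 to 98 with Unc5b knock-down and 96 to 108 with the empty vector, with Emcn at 0 in all 6 libraries. That difference lay in Cdh5, at 86 and 113 in the Ntn1 knock-down, 2 and 0 in the Unc5b knock-down and listed at 0 in both empty vector libraries, whereas Pecam1 averaged 98.5 in the Ntn1 knock-down, 92 in the Unc5b knock-down and 99 with the empty vector. Immune markers (8 genes) summed to 644 to 770 with Ntn1 knock-down, 1258 to 1842 with Unc5b knock-down and 1432 to 1677 with the empty vector, with Adgre1 at 0 in every library. There the lower sum lay in Csf1r, with means of 395 in the Ntn1 knock-down, 1286 in the Unc5b knock-down and 1362 with the empty vector. Cd14 (mean 196 in the Ntn1 knock-down, against 135.5 with the empty vector) and Cd68 (mean 114.5 in the Ntn1 knock-down, against 53 with the empty vector) ran the other way and did not pass. Melanocyte and nerve markers (6 genes) summed to 1093 to 1116 with Ntn1 knock-down, 1654 to 1795 with Unc5b knock-down and 2367 to 2915 with the empty vector, with Dct at 0 throughout and Tyr and Sox10 at 0 to 4. Mitf and Mbp carried that sum: Mitf averaged 297.5 in the Ntn1 knock-down, 278 in the Unc5b knock-down and 1306.5 with the empty vector, and Mbp 753 in the Ntn1 knock-down, 1407 in the Unc5b knock-down and 1306.5 with the empty vector. Pmel averaged 53 in the Ntn1 knock-down and 26 with the empty vector. The part of other cell types in the results below was not tested.

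Trp63 was lower in the Ntn1 knock-down than in both other groups. The gene (ENSMUSG00000022510) lies at chr16:25683763-25892102 on the plus strand of GRCm38, and no annotated gene overlaps its exons. It gives rise to proteins with an amino-terminal transactivation domain (TA forms), the main forms in germ cells, and to shorter ΔN forms, which prevail in basal keratinocytes, from separate promoters. The first 60 coding bases of each kind, from the GENCODE M21 annotation, are shown because the deposited values are sums over the gene and cannot tell the forms apart. Capitals mark the start codon, at base 25684290 for TA and 25802060 for ΔN of chromosome 16, each shared by 4 annotated coding transcripts.
TA start: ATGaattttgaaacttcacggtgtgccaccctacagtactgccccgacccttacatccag
ΔN start: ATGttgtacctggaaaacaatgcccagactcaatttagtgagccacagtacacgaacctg

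Trp63 was at 33 and 31 in the Ntn1 knock-down libraries, 152 and 88 in the Unc5b knock-down libraries, against 94 and 96 in the empty vector libraries. Both Ntn1 knock-down libraries lay below all 4 others, and the Unc5b knock-down libraries lay on either side of the empty vector. Group means were 32 ± 1.41 in the Ntn1 knock-down, 120 ± 45.3 in the Unc5b knock-down and 95 ± 1.41 with the empty vector (SD, n = 2 each). The Ntn1 knock-down was 2.97-fold lower than the empty vector, with a log2 fold change of -1.43 ± 0.31 SE (95% interval -2.15 to -0.72, limma adjusted p = 0.0178). These log2 fold changes are on the scale log2(value + 5), which understates changes of low genes. The Ntn1 knock-down was also 3.75-fold lower than the Unc5b knock-down (-1.71 ± 0.31, adjusted p = 0.0172). Unc5b knock-down and empty vector did not differ by the test (0.27, 95% interval -0.44 to 0.99, adjusted p = 0.631). The Ntn1 knock-down values rest on about 14 and 10 reads, with 95% Poisson intervals of 18.2 to 55.9 and 14.7 to 56.2 that cover counting error only, against 69.6 to 125 and 69.2 to 130 with the empty vector. The call against the empty vector was lost without Ntn1 knock-down library 1 (adjusted p = 0.106), without library 2 (0.12) and with no filter (0.0702), and the call against the Unc5b knock-down was lost without Ntn1 knock-down library 1 (0.145) or 2 (0.153), without Unc5b knock-down library 1 (0.112) and with no filter (0.0779). In bulk RNA, fewer cells with a transcript and less of it per cell cannot be told apart.

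**Figure D1:**
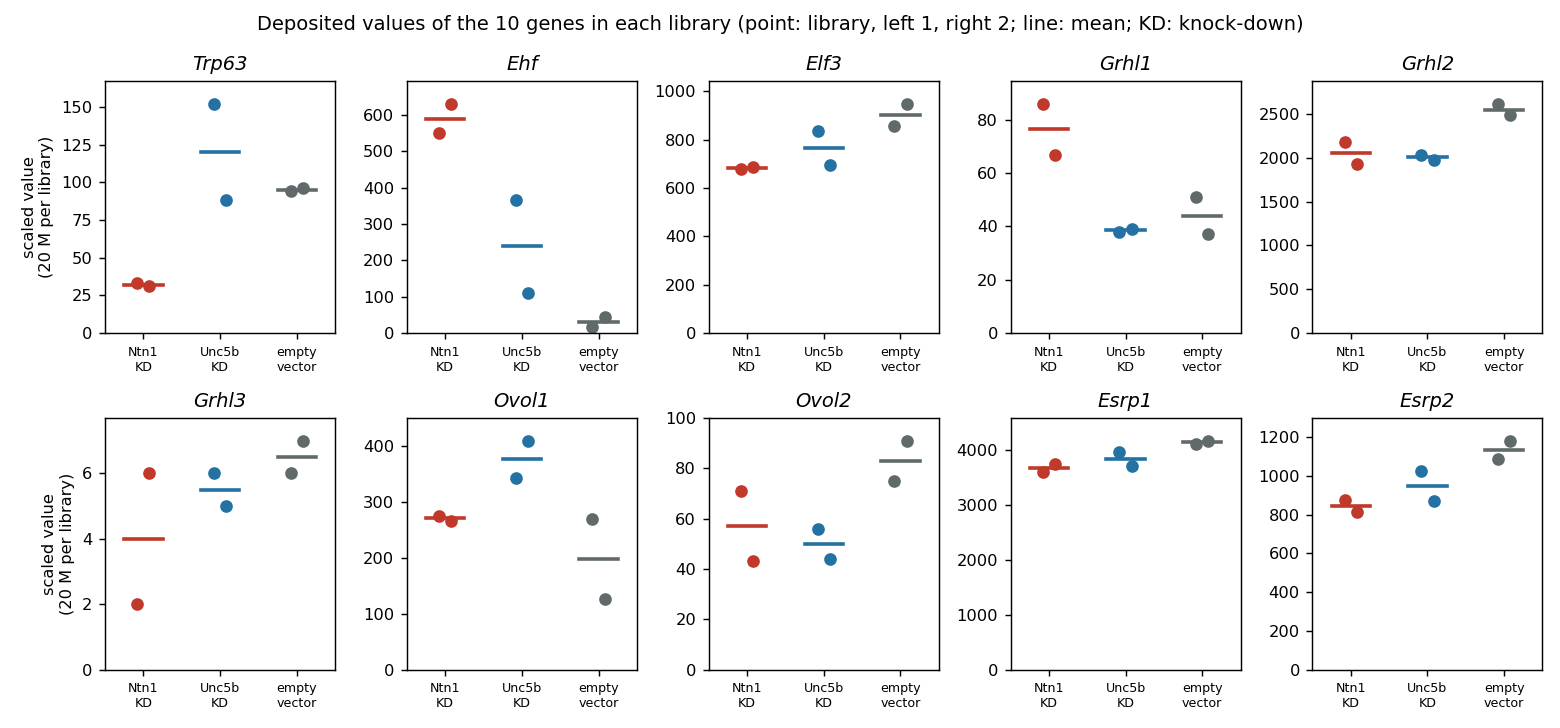
Scaled values of the 10 genes in each library on linear axes that start at 0, with the groups Ntn1 knock-down, Unc5b knock-down and empty vector along the horizontal axis. Points are libraries and lines are group means. Trp63 stands at 33 and 31 in the Ntn1 knock-down, and Ehf at 549 and 630, whereas Esrp1 lies between 3605 and 4171 in all 6 libraries.

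Ehf rose in both knock-downs, and Elf3 did not pass in either. Ehf (ENSMUSG00000012350, chr2:103263433-103303278, minus strand) had exons free of other genes. Elf3 (ENSMUSG00000003051, chr1:135253575-135258568, minus strand) shares 162 bases, 7.31% of its exon length, with Gm26642 on the other strand. The most alike stretch of 90 coding bases is shown because it bears on whether reads of these relatives can be kept apart. Of its 90 bases 79 are identical (capitals), the differences (lower case) are spread along it, and the longest run shared by the coding sequences is 14 bases. The stretch is at coding positions 781 to 870 of Ehf and 1039 to 1128 of Elf3, read from the coding strand of GENCODE M21.
Ehf: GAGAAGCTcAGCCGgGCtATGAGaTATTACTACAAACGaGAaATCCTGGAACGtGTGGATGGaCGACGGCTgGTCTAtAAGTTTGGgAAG
Elf3: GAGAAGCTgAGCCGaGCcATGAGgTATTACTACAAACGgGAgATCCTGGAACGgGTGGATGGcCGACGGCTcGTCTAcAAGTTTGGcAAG

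Ehf was at 549 and 630 in the Ntn1 knock-down libraries, 365 and 111 in the Unc5b knock-down libraries, against 16 and 43 in the empty vector libraries. The 3 groups did not overlap, and the Unc5b knock-down libraries stood far apart. Their values differed 3.29-fold, with counting intervals of 313 to 425 and 82 to 147, against 1.15-fold between the Ntn1 knock-down libraries and 2.69-fold between the empty vector libraries, where Ehf had about 8 and 19 reads. Group means were 589.5 ± 57.3 in the Ntn1 knock-down, 238 ± 179.6 in the Unc5b knock-down and 29.5 ± 19.1 with the empty vector (SD, n = 2 each).

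Ehf was 20-fold higher in the Ntn1 knock-down than with the empty vector (log2 fold change 4.22 ± 0.54 SE, 95% interval 2.98 to 5.47, limma adjusted p = 0.00183), and it passed in all 15 alternatives (adjusted p 0.000931 to 0.0348). Without empty vector library 1 the log2 fold change was 3.63, and without library 2 it was 4.82. In the Unc5b knock-down Ehf was 8.07-fold higher than with the empty vector (2.71 ± 0.54, 95% interval 1.46 to 3.95, adjusted p = 0.0158). This second call was lost in 5 of 15 alternatives: no filter (0.103), no variance trend (0.065), only the 2 groups compared (0.0525), without Unc5b knock-down library 1 (0.0693) and without Ntn1 knock-down library 1 (0.0502). Its log2 fold change was 1.87 without Unc5b knock-down library 1, 3.54 without library 2, 2.11 without empty vector library 1 and 3.30 without empty vector library 2. Both comparisons share the empty vector libraries, which were the low ones. Between the knock-downs, Ehf was 2.48-fold higher with Ntn1 than with Unc5b knock-down, a difference that did not pass (1.52, 95% interval 0.27 to 2.76, adjusted p = 0.141).

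Elf3 was at 680 and 688 in the Ntn1 knock-down, 834 and 695 in the Unc5b knock-down, against 857 and 947 with the empty vector. Every knock-down library lay below both empty vector libraries, yet neither difference passed. The log2 fold change was -0.39 (95% interval -0.73 to -0.06, adjusted p = 0.109) for the Ntn1 knock-down and -0.24 (-0.57 to 0.09, adjusted p = 0.334) for the Unc5b knock-down. The overlapping gene Gm26642 was at 371 and 388 in the Ntn1 knock-down, 438 and 371 in the Unc5b knock-down, against 489 and 567 with the empty vector. Because the strand setting of the counting is not given in the sources used here, reads in the shared bases cannot be told apart. Per kb of exon, Ehf made up 24.3% and 26.7% of the summed level of Ehf and Elf3 in the Ntn1 knock-down libraries, 14.8% and 5.97% in the Unc5b knock-down libraries, against 0.737% and 1.77% in the empty vector libraries. Elf3 was thus the higher of the pair in every library.

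Among the Grhl genes, Grhl2 was the highly expressed one and none passed in any comparison. GRHL2 binds enhancers of junction genes such as Cdh1, GRHL1 regulates desmosomal cadherin genes, and GRHL3 is needed for barrier formation and neural tube closure in mice. Grhl2 (ENSMUSG00000022286, chr15:37233036-37363569, plus strand) was at 2180 and 1929 in the Ntn1 knock-down, 2037 and 1969 in the Unc5b knock-down, against 2614 and 2485 with the empty vector. All 4 knock-down libraries lay below both empty vector libraries. The log2 fold change was -0.31 ± 0.12 SE (95% interval -0.58 to -0.05, adjusted p = 0.109) for the Ntn1 knock-down and -0.35 ± 0.12 (-0.61 to -0.08, adjusted p = 0.0919) for the Unc5b knock-down, so that the direction was the same but the threshold was not met. Between the knock-downs the log2 fold change was 0.03 (adjusted p = 0.898), and their libraries overlapped.

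Grhl1 (ENSMUSG00000020656, chr12:24572283-24617391, plus strand) was at 86 and 67 in the Ntn1 knock-down, 38 and 39 in the Unc5b knock-down, against 51 and 37 with the empty vector. The Ntn1 knock-down libraries lay above the other 4. Their mean was 1.74-fold that of the empty vector (log2 fold change 0.74, 95% interval 0.04 to 1.44, adjusted p = 0.147) and 1.99-fold that of the Unc5b knock-down (0.90, 0.19 to 1.60, adjusted p = 0.127), and neither passed. The Grhl1 values rest on 16 to 36 reads per library. Grhl3 (ENSMUSG00000037188, chr4:135541888-135573630, minus strand) was at 2 and 6 in the Ntn1 knock-down, 6 and 5 in the Unc5b knock-down, against 6 and 7 with the empty vector, which is 1 to 3 reads in each library. A floor of 3 reads is worth 5.90 to 9.17 scaled units, so a fall of Grhl3 was not detectable at this depth and no fold is given. Fitted with no filter, Grhl3 did not pass (limma adjusted p = 0.533 in the Ntn1 knock-down, 0.879 in the Unc5b knock-down and 0.713 between them). Per kb of exon, Grhl2 made up 94.0% of the family in both Ntn1 knock-down libraries, 96.3% in both Unc5b knock-down libraries and 96.4% and 96.9% in the empty vector libraries.

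Ovol1 and Ovol2 did not pass in any comparison, and for Ovol1 the outcome turned on 1 empty vector library. Ovol1 (ENSMUSG00000024922, chr19:5549136-5560646, minus strand), which in mouse epidermis restrains the growth of keratinocytes, was at 276 and 266 in the Ntn1 knock-down, 344 and 410 in the Unc5b knock-down, against 269 and 126 with the empty vector. Empty vector library 1 lay between the Ntn1 knock-down libraries, whereas library 2 was 2.13-fold lower than library 1. The Unc5b knock-down was 1.91-fold higher than the empty vector without overlap (log2 fold change 1.01 ± 0.32 SE, 95% interval 0.28 to 1.73, adjusted p = 0.0786), and the Ntn1 knock-down differed by 0.54 (-0.18 to 1.27, adjusted p = 0.292). Without empty vector library 1, Ovol1 passed in the Ntn1 knock-down (1.07, adjusted p = 0.0129) and in the Unc5b knock-down (1.54, adjusted p = 0.00296), with the lone library assumed to vary like the other groups. Gm31166, which overlaps Ovol1 on the other strand, was at 59 and 61 in the Ntn1 knock-down, 60 and 88 in the Unc5b knock-down, against 41 and 23 with the empty vector, and its overlap, together with that of AC126029.1, takes in 766 bases or 22.0% of the exon length of Ovol1.

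Ovol2 (ENSMUSG00000037279, chr2:144305175-144332146, minus strand), whose product represses Zeb1 in mammary epithelium, was at 71 and 43 in the Ntn1 knock-down, 56 and 44 in the Unc5b knock-down, against 75 and 91 with the empty vector. Every knock-down library lay below the empty vector, but the libraries of the Ntn1 knock-down stood well apart. The log2 fold change was -0.54 (95% interval -1.28 to 0.21, adjusted p = 0.308) for the Ntn1 and -0.68 (-1.42 to 0.06, adjusted p = 0.223) for the Unc5b knock-down. Those intervals take in both a fall of more than 1 on the log2 scale and no change, at 14 to 40 reads per library. Ovol1 made up 70.2% and 78.9% of the summed level of both genes per kb in the Ntn1 knock-down, 78.8% and 85.0% in the Unc5b knock-down, against 68.5% and 45.6% with the empty vector. Empty vector library 2 was the single library in which Ovol2 was the higher of the pair.

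Neither splicing factor gene passed in any comparison. Esrp1 (ENSMUSG00000040728, chr4:11331933-11386783, minus strand) was at 3605 and 3740 in the Ntn1 knock-down, 3971 and 3713 in the Unc5b knock-down, against 4113 and 4171 with the empty vector. Its log2 fold change was -0.17 (95% interval -0.41 to 0.06, adjusted p = 0.297) for the Ntn1 knock-down and -0.11 (-0.34 to 0.13, adjusted p = 0.547) for the Unc5b knock-down. These were the narrowest intervals of the 9 tested genes, and they leave room for a fall of at most 0.41 on the log2 scale at the 95% level. Esrp2 (ENSMUSG00000084128, chr8:106130319-106136974, minus strand) was at 877 and 813 in the Ntn1 knock-down, 1024 and 873 in the Unc5b knock-down, against 1089 and 1182 with the empty vector. Esrp2 was lower in all 4 knock-down libraries, and the test gave -0.42 ± 0.14 SE (95% interval -0.74 to -0.11, adjusted p = 0.0763) for the Ntn1 and -0.26 (-0.58 to 0.05, adjusted p = 0.269) for the Unc5b knock-down. The longest run of bases shared by the coding sequences of the relatives measured here was that of Esrp1 and Esrp2, 35 bases, starting at coding position 1794 of Esrp1 and 1872 of Esrp2. It is shown because a read that lies wholly within it would match both genes.
Esrp1 and Esrp2: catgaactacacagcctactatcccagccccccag
Other shared runs were 29 bases for Grhl1 and Grhl2, 20 for Ovol1 and Ovol2, 16 for Grhl2 and Grhl3 and 12 for Grhl1 and Grhl3. Esrp1 made up 73.9% and 76.0% of the pair per kb in the Ntn1 knock-down, 72.7% and 74.5% in the Unc5b knock-down, against 72.2% and 70.8% with the empty vector.

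**Figure D2:**
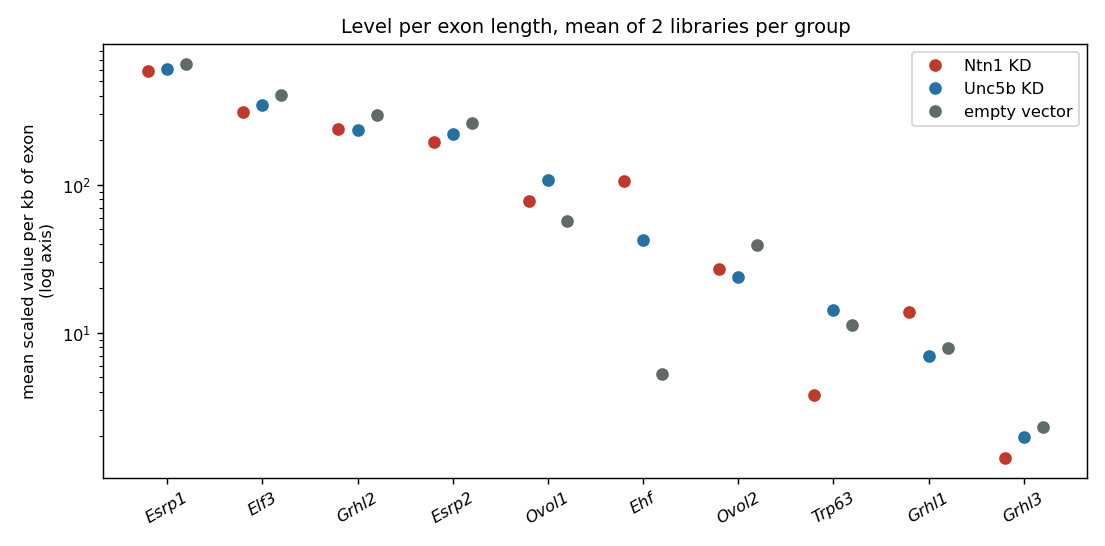
Mean scaled value per kb of exon (log axis) for the 10 genes, ordered by their mean over the 6 libraries, with 1 point for each group of 2 libraries. Esrp1, Elf3, Grhl2 and Esrp2 lie at 194.7 and above in all 3 groups, and Ehf lies at 105.7 in the Ntn1 knock-down, 42.7 in the Unc5b knock-down and 5.29 with the empty vector.

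Per kb of exon, the order of the genes was led by Esrp1, Elf3, Grhl2 and Esrp2 in every group. Their mean levels per kb were 582.5, 308.5, 238.5 and 194.7 in the Ntn1 knock-down, against 656.9, 406.9, 296 and 261.6 with the empty vector. The libraries of these 4 neighbours did not overlap, except for Grhl2 and Esrp2 in the Unc5b knock-down (232.6 and 218.5). The order of the lower genes differed between groups. Ehf ranked 5 of 10 in the Ntn1 knock-down at 105.7, 6 in the Unc5b knock-down at 42.7 and 9 with the empty vector at 5.29. Ehf overlapped Ovol2 in the Unc5b knock-down and Grhl1 with the empty vector. Trp63 was at 3.81 per kb in the Ntn1 knock-down, 14.3 in the Unc5b knock-down and 11.3 with the empty vector, and it ranked 9 in the Ntn1 knock-down, 8 in the Unc5b knock-down and 7 with the empty vector. Without overlap it lay below Grhl1 in the Ntn1 knock-down (13.8 per kb for Grhl1), but above it in the Unc5b knock-down (6.95) and with the empty vector (7.94). Exons of 6 of the 10 genes overlap a gene on the other strand. Beside Elf3 and Ovol1, these are Ovol2 (359 bases, 17.0% of its exons), Esrp2 (338 bases, 7.79%), Esrp1 (127 bases, 2.01%) and Grhl2 (169 bases, 1.96%).

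In the Ntn1 knock-down, 2 of the 9 tested genes passed against the empty vector, Ehf higher and Trp63 lower, where 15.1% of all tested genes passed. In the Unc5b knock-down 1 of 9 passed, Ehf, where 12% of all genes did. Between the knock-downs 1 of 9 passed, Trp63, where 7.1% did (4.15% of all genes were higher and 2.95% lower in the Ntn1 than in the Unc5b knock-down). With 9 genes, these counts are near the shares over all genes. In the Ntn1 knock-down, 6 of the 10 genes lay below the empty vector without overlap (Trp63, Elf3, Grhl2, Ovol2, Esrp1 and Esrp2), where 30.2% of tested genes did, and 2 lay above (Ehf and Grhl1), where 28% did. In the Unc5b knock-down, 5 lay below (Elf3, Grhl2, Ovol2, Esrp1 and Esrp2), where 23.2% did, and 2 above (Ehf and Ovol1), where 28.7% did. Between the knock-downs, 3 lay lower in the Ntn1 knock-down (Trp63, Elf3 and Ovol1), where 31.3% of genes did, and 2 higher (Ehf and Grhl1), where 24.4% did. The empty vector libraries are shared by both comparisons. The median log2 fold change of the 9 genes was -0.31 in the Ntn1 knock-down and -0.16 in the Unc5b knock-down, while over all tested genes it was -0.02 in the Ntn1 and 0.04 in the Unc5b knock-down.

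**Figure D3:**
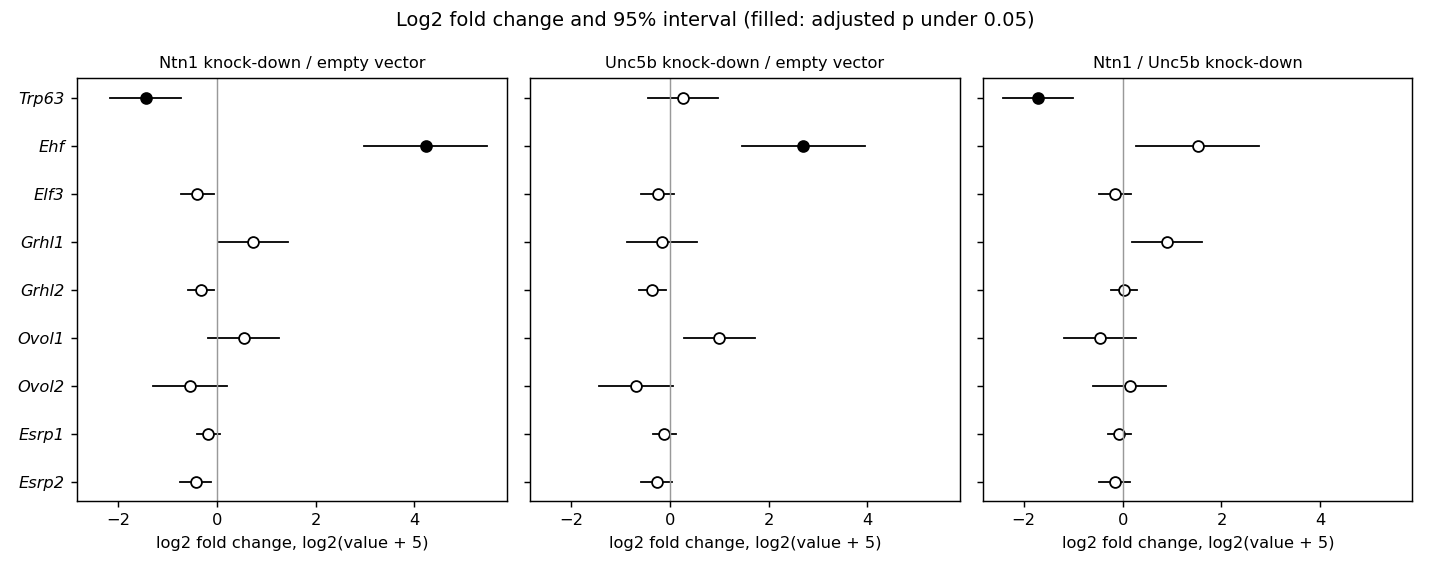
Log2 fold change with its 95% interval, on the log2(value + 5) scale, for the 9 tested genes in the 3 comparisons. Filled points passed at an adjusted p under 0.05 (limma). Against the empty vector, Ehf stands at 4.22 with Ntn1 knocked down and at 2.71 with Unc5b knocked down, and Trp63 at -1.43 with Ntn1 knocked down and at -1.71 between the knock-downs. Those 4 points are filled and all others are open.

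The genes closest to Trp63 in pattern over the 6 libraries were Amigo2, Trib2 and Gm13387, with root mean square differences of 0.0995, 0.169 and 0.188 between centred log2(value + 5) profiles. Amigo2, a leucine-rich adhesion protein gene, was at 174 and 150 in the Ntn1 knock-down, 671 and 449 in the Unc5b knock-down, against 405 and 496 with the empty vector. Closest to Ehf were Nos2 (0.371), Cxxc5 (0.399) and Cacng4 (0.492). Nos2, the inducible nitric oxide synthase gene, was at 1519 and 1939 in the Ntn1 knock-down, 678 and 340 in the Unc5b knock-down, against 39 and 69 with the empty vector. Among the 9 genes themselves the smallest difference from Trp63 was 0.659, for Esrp2, and from Ehf 1.67, for Grhl1. These were sought among few genes and the closest ones above among all 15330 tested, so these values cannot be compared with those above. Differences between the remaining genes were not computed.

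Among genes known as p63 targets in keratinocytes, more rose than fell in the Ntn1 knock-down, in which Trp63 was lower. Whether the changes of these genes were tied to Trp63 was not tested. Of 19 tested, 6 were higher and 2 lower by the test with Ntn1 knocked down, with a median log2 fold change of 0.46, where 8.04% of all genes rose and 7.06% fell. Krt5, the basal keratin, was at 1034 and 1027 in the Ntn1 knock-down, 697 and 776 in the Unc5b knock-down, against 287 and 320 with the empty vector. It rose in the Ntn1 knock-down (1.75, adjusted p = 0.000327) and in the Unc5b knock-down (1.26, adjusted p = 0.00136), in which Trp63 did not pass. Cldn1, a tight junction gene, rose by 2.40 in the Ntn1 knock-down (adjusted p = 0.00109), and Fermt1, encoding the integrin activator kindlin-1, by 1.15 (adjusted p = 0.00151). Fras1, of the epidermal basement membrane, fell by 5.20 (adjusted p = 0.00166), with empty vector libraries at 320 and 871. Those 4 genes passed in all 15 alternatives in the Ntn1 knock-down, and the remaining calls, Itga6, Itga3 and Dst higher and Ripk4 lower, did not hold when either Ntn1 knock-down library was left out (highest adjusted p 0.104, 0.177, 0.215 and 0.264 in that order of genes). With Unc5b knocked down 2 rose, Krt5 and Cldn1, and 2 fell, Fras1 and Perp, with a median of -0.02, where 5.9% of all genes rose and 6.07% fell. Of those calls Krt5 held in all 15 alternatives. Cldn1 was lost without Unc5b knock-down library 2 and with no filter, and Fras1 with no filter (adjusted p = 0.0668). Perp was lost in 9 of the 15 alternatives, among them the removal of any 1 knock-down library or of empty vector library 1. Krt14, the partner of Krt5, was at 5233 and 4795 in the Ntn1 knock-down, 1759 and 3817 in the Unc5b knock-down, against 3917 and 1692 with the empty vector and did not pass (adjusted p = 0.164 in the Ntn1 and 0.992 in the Unc5b knock-down).

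Of 18 tested genes known as GRHL targets in epithelia, which include Ovol1, Ovol2, Esrp1 and Esrp2, 1 rose and 4 fell when Ntn1 was knocked down, with a median of -0.22, where 8.04% of all genes rose and 7.06% fell. Tgm1, the transglutaminase of the cornified envelope, was at 93 and 86 in the Ntn1 knock-down, 489 and 419 in the Unc5b knock-down, against 1022 and 846 with the empty vector. It fell by 3.31 in the Ntn1 knock-down (adjusted p = 9.7e-05, called in all 15 alternatives) and by 1.03 in the Unc5b knock-down (adjusted p = 0.00899, but 0.0816 without Unc5b knock-down library 2). Cldn4, Spint1 and Cldn3 fell by 0.67, 0.61 and 0.55 in the Ntn1 knock-down, and Dsc2, a desmosomal cadherin, rose by 1.58 (adjusted p = 0.00615). None of those 4 calls held when either Ntn1 knock-down library was left out (adjusted p up to 0.264). With Unc5b knocked down 0 rose and 2 fell, Tgm1 and Spint1, with a median of -0.14, where 5.9% of all genes rose and 6.07% fell. The Spint1 call there (adjusted p = 0.0165) was lost without Unc5b knock-down library 2, with no filter and with no variance trend. Cdh1, encoding E-cadherin, did not pass in the Ntn1 (adjusted p = 0.299) or the Unc5b knock-down (0.0675), and neither did Epcam (0.27 in the Ntn1 and 0.696 in the Unc5b knock-down). Between the knock-downs Cdh1 passed, higher in the Ntn1 knock-down by 0.58 (adjusted p = 0.0228), a call lost without any 1 knock-down library (up to 0.249).

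Of 8 tested genes known to be repressed by OVOL factors, 3 rose and 1 fell with Ntn1 knocked down, with a median of 0.22 (over all genes 8.04% rose and 7.06% fell). With Unc5b knocked down, 0 rose and 4 fell, with a median of -1.12 (over all genes 5.9% rose and 6.07% fell). Cdh2, which encodes N-cadherin, was at 811 and 709 in the Ntn1 knock-down, 9 and 7 in the Unc5b knock-down, against 43 and 98 with the empty vector. With Ntn1 knocked down it rose by 3.44 (adjusted p = 0.000865), and it fell by 2.44 in the Unc5b knock-down (adjusted p = 0.00473), in all 15 alternatives each. Between the knock-downs Cdh2 was higher in the Ntn1 knock-down by 5.88 (adjusted p = 0.000774). Zeb2, a repressor of epithelial genes, was at 635 and 755 in the Ntn1 knock-down, 496 and 380 in the Unc5b knock-down, against 299 and 320 with the empty vector, and it rose in the Ntn1 knock-down (1.15, adjusted p = 0.00501, but 0.0781 without Ntn1 knock-down library 2). Myc rose by 0.68 in the Ntn1 knock-down, a call lost without either of its libraries (adjusted p up to 0.142). Id2, a helix-loop-helix inhibitor gene, fell in both the Ntn1 (-2.56, adjusted p = 0.000535) and the Unc5b knock-down (-1.56, adjusted p = 0.00594, but 0.0575 with no filter). Vim and Twist1 also fell in the Unc5b knock-down, by 2.83 (adjusted p = 0.00124) and 2.06 (adjusted p = 0.00658, but 0.0526 with no filter).

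Of the EMT transcription factors that repress epithelial genes, 5 of 6 were tested and 2 passed in each knock-down, where 15.1% of all genes did in the Ntn1 and 12% in the Unc5b knock-down. Zeb1, Zeb2, Snai1 and Twist1 also stand among the genes repressed by OVOL factors, so the calls of Zeb2 and Twist1 are counted in both lists. In the Ntn1 knock-down Zeb2 rose and Twist2 fell (-1.96, adjusted p = 0.00754, but 0.0802 without Ntn1 knock-down library 1), and in the Unc5b knock-down Twist1 and Twist2 fell, the second by 1.44 (adjusted p = 0.0315, up to 0.186 without Unc5b knock-down library 2, empty vector library 2 or other settings). Gm29100 on the other strand overlaps 1477 bases, 46.5%, of the exons of Twist2. As the strand setting of the counting is not given, reads there cannot be told apart. Zeb1 was at 19 and 55 in the Ntn1 knock-down, 17 and 19 in the Unc5b knock-down, against 26 and 39 with the empty vector and did not pass. Snai1 was at 262 and 248 in the Ntn1 knock-down, 534 and 396 in the Unc5b knock-down, against 336 and 350 with the empty vector, and it passed between the knock-downs, lower in the Ntn1 knock-down (-0.84, adjusted p = 0.0362, up to 0.251 without any 1 knock-down library). Snai2, below the filter, was at 40 and 28 in the Ntn1 knock-down, 2 and 2 in the Unc5b knock-down, against 10 and 27 with the empty vector.

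Binding letters of such repressors were looked for in RefSeq promoter windows of GRCm38.p6, 250 bases before to 50 after a start, which were matched for Elf3, Grhl1, Grhl3 and Ovol2. Grhl1 had windows at chr12:24572037-24572336 and, inside the gene, at chr12:24580469-24580768. The Ovol2 window (chr2:144331313-144331612, minus strand) also lies inside the gene, downstream of the first base of its longest coding sequence (144331860). For Ovol2 the letters are thus those of an internal start. The E-box CACCTG, bound by ZEB and SNAI factors, was in 20.2% of 32851 windows on either strand. It was in 1 of the 4 genes' windows at position -140 from the start (Elf3) and in another at -19 and 9 (Grhl3). The GRHL letters AACNGGTT (2.09% of windows) and the AP-1 letters TGANTCA (7.81%) were in none of them, and the ETS letters GGAAGT (23.8%) were in that of Ovol2. The windows with an E-box are given with it in capitals, on the strand of the gene, at chr1:135258423-135258722 and chr4:135573583-135573882, both minus. A match describes the letters and is not a site.
Elf3 promoter: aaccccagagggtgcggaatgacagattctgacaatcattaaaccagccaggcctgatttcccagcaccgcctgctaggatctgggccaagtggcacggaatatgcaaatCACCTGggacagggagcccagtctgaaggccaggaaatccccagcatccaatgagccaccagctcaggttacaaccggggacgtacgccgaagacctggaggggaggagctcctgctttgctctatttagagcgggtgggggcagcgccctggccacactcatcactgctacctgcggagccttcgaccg
Grhl3 promoter: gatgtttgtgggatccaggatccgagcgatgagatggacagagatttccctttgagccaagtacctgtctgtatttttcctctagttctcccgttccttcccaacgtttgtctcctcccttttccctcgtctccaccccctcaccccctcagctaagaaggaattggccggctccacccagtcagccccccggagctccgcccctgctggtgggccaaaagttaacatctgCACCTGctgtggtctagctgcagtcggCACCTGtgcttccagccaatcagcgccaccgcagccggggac

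Transcripts with exons known to be regulated by ESRP factors were measured as gene totals, which do not show exon choice. Of 15 tested, 3 rose and 1 fell with Ntn1 knocked down (median -0.03), and 1 rose with Unc5b knocked down (median -0.08). That is 26.7% of them with Ntn1 knocked down, where 15.1% of all genes passed, and 6.67% with Unc5b knocked down, where 12% did. Cd44, a cell surface glycoprotein with variable exons, was at 22294 and 23934 in the Ntn1 knock-down, 18888 and 22343 in the Unc5b knock-down, against 14071 and 14156 with the empty vector. It rose by 0.71 in the Ntn1 knock-down (adjusted p = 0.00538, up to 0.0855 when either of its libraries was left out). In the Unc5b knock-down it rose by 0.54 (adjusted p = 0.0195). That call was lost in 6 of the 15 alternatives, among them the removal of Unc5b knock-down library 2 or of either Ntn1 knock-down library. The actin regulator gene Enah rose by 0.51 and Rps24, a ribosomal protein gene, fell by 0.46 in the Ntn1 knock-down, both lost without either of its libraries (adjusted p up to 0.173 for Enah and 0.214 for Rps24). Fgfr2 was at 452 and 462 in the Ntn1 knock-down, 299 and 264 in the Unc5b knock-down, against 273 and 375 with the empty vector, and did not pass (adjusted p = 0.123 in the Ntn1 and 0.601 in the Unc5b knock-down).

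Of 20 tested other splicing regulators tied to epithelial or mesenchymal exons, 2 fell and 0 rose in the Ntn1 knock-down and 1 rose and 1 fell in the Unc5b knock-down, 10% in each, where 15.1% of all genes passed in the Ntn1 and 12% in the Unc5b knock-down. Celf1 was at 2563 and 2789 in the Ntn1 knock-down, 7585 and 8037 in the Unc5b knock-down, against 7376 and 6956 with the empty vector, and fell by 1.42 in the Ntn1 knock-down (adjusted p = 0.000212). Mbnl1 fell by 0.87 there (adjusted p = 0.00151). Qk was at 7369 and 7103 in the Ntn1 knock-down, 3762 and 3634 in the Unc5b knock-down, against 7368 and 7401 with the empty vector, and fell by 1.00 in the Unc5b knock-down (adjusted p = 0.000735). Those 3 calls held in all 15 alternatives, and the rise of Rbm47 in the Unc5b knock-down (0.92, adjusted p = 0.00919) was lost without Unc5b knock-down library 1 or with 2 other settings (up to 0.0589).

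**Figure D4:**
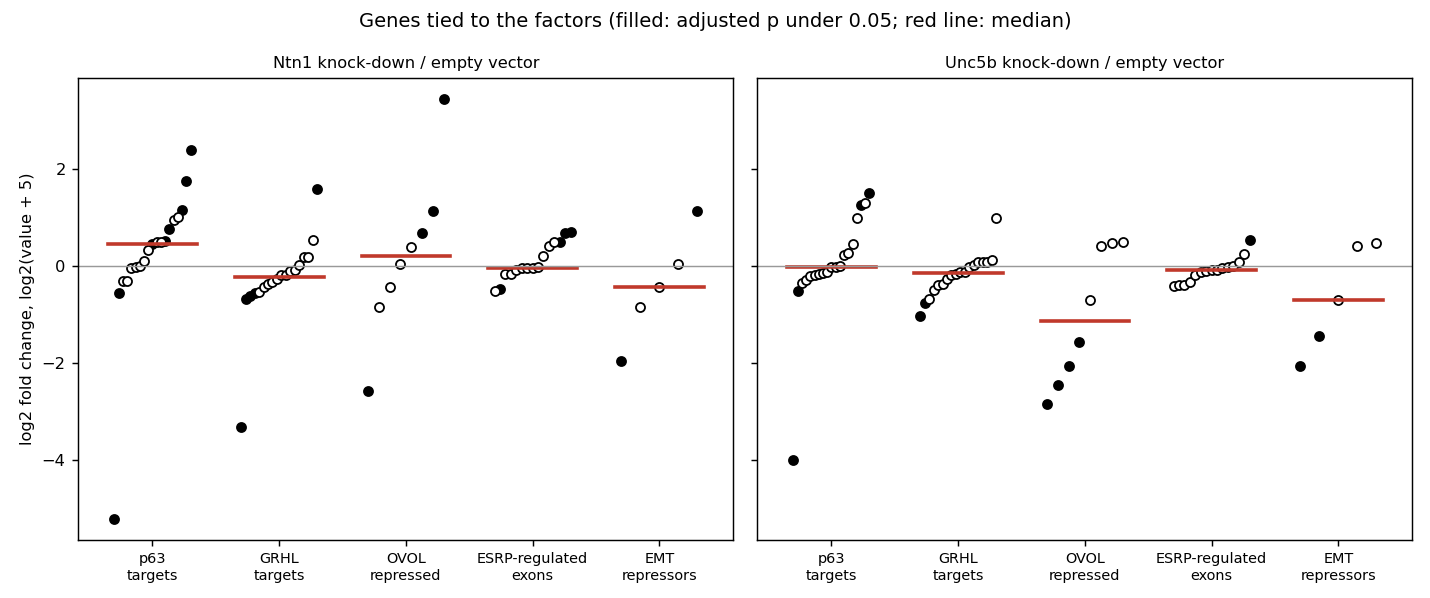
Log2 fold change on the log2(value + 5) scale of each tested gene in the lists of p63 targets, GRHL targets, OVOL repressed genes, transcripts with ESRP-regulated exons and EMT repressors, for the Ntn1 knock-down (left) and the Unc5b knock-down (right) against the empty vector. Filled points passed at an adjusted p under 0.05 and red lines are medians. The median of the OVOL repressed genes is 0.22 on the left and -1.12 on the right. Zeb1, Zeb2, Snai1 and Twist1 are drawn both there and among the EMT repressors.

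Of 15 tested epithelial and keratinocyte transcription factors outside the 10 genes, 2 rose (Klf5, Foxn1) and 3 fell (Klf4, Rarg, Maf) in the Ntn1 knock-down, where 8.04% of all genes rose and 7.06% fell. Rarg, a retinoic acid receptor gene, was at 1389 and 1349 in the Ntn1 knock-down, 2494 and 2071 in the Unc5b knock-down, against 2865 and 2767 with the empty vector, and its fall (-1.04, adjusted p = 0.00139) held in all 15 alternatives. Klf4, a factor of epidermal differentiation, fell by 1.20 (adjusted p = 0.0145), Foxn1 rose by 1.67 (adjusted p = 0.0251), Klf5 rose by 0.71 (adjusted p = 0.0229) and Maf fell by 0.97 (adjusted p = 0.0464). None of those 4 calls held when either Ntn1 knock-down library was left out (adjusted p up to 0.133, 0.202, 0.174 and 0.231 in that order of genes). With Unc5b knocked down, where 5.9% rose and 6.07% fell, 1 rose, Gata3 (0.95, adjusted p = 0.0221). Its call was lost in 5 of the 15 alternatives, among them the removal of either Unc5b knock-down library or of empty vector library 1. In the same knock-down 2 fell, Klf4 (-1.64, adjusted p = 0.00474, but 0.0505 with no filter) and Sox9 (-0.61, adjusted p = 0.0198). The Sox9 call was lost in 7 of the 15 alternatives, among them the removal of any 1 knock-down library. Of 7 tested relatives of the 10 genes, Tfcp2l1, a gene of the CP2 branch of the grainyhead family, was the single one to pass. It was at 319 and 385 in the Ntn1 knock-down, 135 and 109 in the Unc5b knock-down, against 271 and 400 with the empty vector, and fell by 1.40 in the Unc5b knock-down (adjusted p = 0.00813, but up to 0.0683 without Unc5b knock-down library 2 or with no filter). The gene totals of Trp53 (adjusted p = 0.899 in the Ntn1 and 0.662 in the Unc5b knock-down), Elf1, Elf2 and Elf4 did not pass, and Trp73 was listed at 0 in all 6 libraries.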

How the data were processed

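RNA of sorted cells was extracted with a column kit and made into libraries with the Ovation Solo system, per the labels' protocols. Per the submitters' processing notes, STAR, HTSeq and Picard were used (no versions) with the GRCm38 (mm10) build. Which annotation was used, and how strand, duplicates and scaling were handled, was not given in the sources used here. Deposited values, treated as a score, are whole numbers summing to 20 M per library, so they are scaled, rounded numbers and not raw read counts. In each library the distinct values to 1500 were all multiples, within 0.5, of 1 step, taken as the worth of 1 read. No count model was fitted, and the branch of the design for scaled values was used.

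Values were analysed as log2(value + 5) over 15330 genes with a mean of at least 20. The 3 groups entered 1 linear model over the 6 libraries (limma 3.58.1, R 4.3.3), with a variance trend, 3 residual and 5.33 prior degrees of freedom. Tests were 2-sided, with Benjamini-Hochberg adjustment over all tested genes within each comparison, and a gene passed at an adjusted p under 0.05. The smallest p of an exact permutation test is 0.333 for 2 against 2 libraries, so none was used. Folds are ratios of group means as deposited. The fit of the linear model was tested on simulated data. Positions and exon lengths came from GENCODE M21, in which 49412 identifiers were found. Counting intervals are exact Poisson intervals.

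The 10 genes and all lists were chosen with earlier results of these data known. All 10 were named, with the targeted genes, up to 2 called genes with the largest change in each direction per list and comparison, 12 genes named whatever their values, and the 3 genes closest to each called one in pattern. Other called list genes are named to complete their counts, except for a result that is not reported here. In 15 alternatives the pseudocount (1 or 20), filter (none or a mean of 50), scaling (median of ratios or quantile), variance trend, replicate block, groups fitted and each library were varied. For list genes, the alternatives named beside a call are not always all that lost it. The labels did not say what the library numbers mark, so the main fit had no replicate block. Exons were not analysed here.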

Additional observations from a re-analysis of the deposited data

How the results depend on the processing

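With 2 libraries a group, counts of passing genes moved with the processing. Of 405 results of the 9 genes over the 15 alternatives, 386 kept their direction and side of the threshold, 12 lost a call, 2 gained one and 5 changed sign. Most of the 405 were not calls in the main fit and so had no call to lose. Ehf kept its call in 15 of 15 alternatives in the Ntn1 knock-down and in 10 in the Unc5b knock-down. Trp63 in the Ntn1 knock-down kept its call in 12 against the empty vector and in 11 against the Unc5b knock-down. The count for the Ntn1 knock-down (2314) was 1289 with no filter, 1462 with no variance trend and 507 to 2769 leaving out 1 library. That for the Unc5b knock-down (1835) was 791, 1115 and 680 to 2428 under the same settings and 950 with only the 2 groups compared. Between the knock-downs (1088) it was 302, 454, 34 to 1842 and 1856. Fewest passed without Ntn1 knock-down library 1 (507 and 34) and without Unc5b knock-down library 2 (680). Of the 10 genes, 2 passed in the Ntn1 knock-down, but 1 with no filter and 1 to 3 leaving out 1 library. In the Unc5b knock-down 1 passed, but 0 with no filter, no variance trend or only the 2 groups compared, and 0 to 2 leaving out 1 library. Between the knock-downs 1 passed, but 0 with no filter and 0 to 1 leaving out 1 library. The causes were not tested, except that no filter adds low genes.

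Signs changed for differences near 0 when 1 library was left out. Trp63 in the Unc5b knock-down ranged over -0.1046 to 0.6508 (negative without Unc5b knock-down library 1) and Grhl1 there over -0.3645 to 0.05053 (positive without empty vector library 1). Between the knock-downs, Grhl2 ranged over -0.05396 to 0.1221 and Ovol2 over -0.1878 to 0.4752, both negative without Ntn1 knock-down library 1, and Ovol2 also without Unc5b knock-down library 2 (-0.01429).

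Deviations of same-numbered libraries correlated at -0.169 to 0.16 between the Ntn1 knock-down and the other groups and at -0.45 between Unc5b knock-down and empty vector. These values rest on 2 libraries a group and cannot decide whether the numbers pair the samples, which the labels do not state. With a replicate block 1465 genes passed in the Ntn1 knock-down, 1102 in the Unc5b knock-down and 459 between them, and of the 10 genes 2, 1 and 1. Depth limits Grhl3 most, and Grhl1, Ovol2 and Trp63 next.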
